A study of Homo sapiens with 30 samples.

Results

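The genes described are 10 members of the NF-κB system, 5 that encode its DNA-binding subunits (NFKB1, NFKB2, REL, RELA and RELB) and 5 that encode inhibitors and regulators which NF-κB itself switches on (NFKBIA, NFKBIE, TNFAIP3, BIRC3 and TRAF1). They were taken by name from 59792 genes of the RefSeq annotation of GRCh38.p14. Every chromatin peak that overlapped a member or lay within 5 kb of it was kept, which gave 17 of 21268 H3K4me3 peaks and 73 of 63580 H3K27ac peaks. The cells were OCI-Ly1, an established human diffuse large B-cell lymphoma line of germinal centre type, so every library came from 1 line. JIB-04, which blocks histone demethylases of the Jumonji family, was given at 150 nM or 500 nM, and control cells received the vehicle alone, 0.01% DMSO. The time of exposure was not given in the sources used here. Chromatin immunoprecipitation followed by sequencing (ChIP-seq) gave 30 libraries, of which 12 were used, 2 per dose for H3K4me3, a mark of active promoters, and 2 per dose for H3K27ac, a mark of active promoters and enhancers. No label states that the 2 libraries of a group came from separate cultures, so p-values measure the spread between these libraries, which may be technical.

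NF-κB proteins bind DNA as dimers. In resting cells the IκB proteins hold them in the cytoplasm, and IκB kinase, activated downstream of the B-cell receptor, Toll-like receptors and TNF-family receptors, marks IκB for destruction. A slower, noncanonical branch through NIK processes the product of NFKB2 and releases RelB dimers. Once in the nucleus, NF-κB induces genes of its own subunits and of its inhibitors, which makes the system a feedback circuit. Many B-cell lymphomas depend on it.

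The κB element, the 10-base site that NF-κB dimers bind, was searched by its consensus on both strands of the 250 bases upstream of each start in the RefSeq promoter table, which held 8 of the 10 members. Such a match was present in the most upstream window of 5 of these 8 (NFKB1, REL, NFKBIA, TNFAIP3 and BIRC3), and in 2 of the other windows of NFKB2. Across all 35116 windows of the table, 9.96% held a match. The windows of RELA and TRAF1 held none. NFKB1 carried GGGAATTTCC 49 bases and NFKBIA carried GGAAATTCCC 81 bases before the start. The 4 members whose H3K4me3 peak over the gene start was lower at 500 nM are printed from RefSeq (GRCh38.p14, 5′ to 3′ on the strand of the gene), since each of these 250-base stretches lies inside the peak that changed. Capitals mark the matches. In REL they are 2 overlapping matches on opposite strands, which form 1 palindromic stretch.
REL, chr2:60881324-60881573, strand +: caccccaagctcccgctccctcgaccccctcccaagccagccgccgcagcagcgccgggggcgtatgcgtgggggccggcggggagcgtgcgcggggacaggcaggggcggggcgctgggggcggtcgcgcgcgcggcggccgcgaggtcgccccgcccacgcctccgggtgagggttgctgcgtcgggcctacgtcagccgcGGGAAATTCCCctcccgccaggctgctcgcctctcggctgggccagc
TNFAIP3, chr6:137867009-137867258, strand +: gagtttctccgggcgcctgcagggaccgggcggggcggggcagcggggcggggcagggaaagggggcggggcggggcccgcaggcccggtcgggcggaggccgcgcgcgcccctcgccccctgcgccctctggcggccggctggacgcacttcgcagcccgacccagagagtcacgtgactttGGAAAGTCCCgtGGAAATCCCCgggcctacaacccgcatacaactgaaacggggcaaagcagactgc
BIRC3, chr11:102317234-102317483, strand +: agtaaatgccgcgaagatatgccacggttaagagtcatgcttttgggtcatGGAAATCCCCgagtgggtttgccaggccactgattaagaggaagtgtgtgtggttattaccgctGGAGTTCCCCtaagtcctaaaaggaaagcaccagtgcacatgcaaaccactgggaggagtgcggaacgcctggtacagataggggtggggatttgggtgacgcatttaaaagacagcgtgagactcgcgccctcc
RELA, chr11:65663858-65664107, strand -: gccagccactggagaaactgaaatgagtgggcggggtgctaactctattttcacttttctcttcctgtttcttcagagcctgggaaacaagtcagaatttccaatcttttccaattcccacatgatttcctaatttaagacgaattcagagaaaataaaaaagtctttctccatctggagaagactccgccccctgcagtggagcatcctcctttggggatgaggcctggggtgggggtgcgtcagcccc

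REL, TNFAIP3 and BIRC3 thus each carried 2 matches beneath the H3K4me3 peaks described next, and RELA, which encodes p65, carried none in this window. A match is a sequence feature only. Binding of NF-κB was not measured.

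Levels are given as CPM (counts scaled to library size), the reads of a peak relative to all reads in tested peaks of its library after scaling. A change shared by all peaks is therefore not seen. The libraries held 9686420 to 12327122 reads in H3K4me3 peaks and 4360660 to 5410292 in H3K27ac peaks, with medians of 263 to 328 and 21 to 24 reads per peak, so single H3K27ac peaks carry much larger counting error. In H3K27ac, reads on 5 unplaced contigs split the libraries, with 363 in DMSO replicate 2 and 246 in 150 nM replicate 2 against 1674 to 2173 in the other 4. B-cell identity was checked over gene starts. All 5 B-cell markers with a promoter window carried both marks, at 112 to 481 CPM of H3K4me3 and 52.7 to 197 CPM of H3K27ac. Of the T-cell markers 1 of 3 was marked, at 8.58 and 1.69 CPM. Among myeloid markers 1 of 3 was marked by H3K4me3 at 10.7 CPM and 0 of 3 by H3K27ac, and 0 of 1 epithelial and 0 of 1 hepatocyte markers had a peak.

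In vehicle-treated cells the members differed in how much of each mark they carried. Per kb, summed over all peaks within 5 kb of a gene, H3K4me3 in DMSO was highest at RELA (39.4 CPM per kb ± 0.74, SD, n = 2), TNFAIP3 (39.3 ± 0.51) and NFKBIE (38.9 ± 0.037), whose library values overlapped. BIRC3 followed at 34.5 ± 0.30. NFKB1 (32.1 ± 1.6), NFKBIA (31.3 ± 2.0) and REL (30.1 ± 0.60) overlapped with their neighbours in this order. RELB (26.3 ± 0.051), NFKB2 (22.1 ± 0.75) and TRAF1 (18.1 ± 0.93) came last, each separate from the next. The RELB value includes a peak outside the gene, over the neighbouring gene CLASRP, at 31.3 CPM per kb. That of NFKBIE includes a peak outside the gene, over its neighbour SLC35B2, at 44.2 CPM per kb. The H3K27ac order was different. TRAF1, lowest in H3K4me3, was highest in H3K27ac at 27.3 CPM per kb ± 1.1 and did not overlap NFKBIA at 23.2 ± 3.5. That rank holds for the sums only. The TRAF1 start peak stood at 22.4 CPM per kb, and the highest TRAF1 values were 34.5 at the peak shared with PHF19 and 33.0 at a peak outside the gene. RELA stood at 17.2 ± 0.16. NFKBIE (16.2 ± 1.1), RELB (15.3 ± 1.3) and BIRC3 (15.0 ± 0.17) overlapped in turn. TNFAIP3 (13.9 ± 0.50) and REL (12.9 ± 0.072) were lower, and NFKB1 (11.8 ± 0.51) and NFKB2 (11.3 ± 0.46) overlapped at the bottom. These lengths are those of the called peaks, so wide peaks with low flanks lower the value.

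At 500 nM JIB-04, H3K4me3 was lower than in DMSO at 8 of the 16 tested member peaks and higher at 0. The 8 peaks belonged to 7 genes, the subunits REL, RELA and RELB and the feedback genes NFKBIE, TNFAIP3, BIRC3 and TRAF1. The promoter peaks of REL, RELA, TNFAIP3 and BIRC3 and the main peak of NFKBIE fell by 6.2% to 11.4%. A smaller RELB peak fell by 40.1% and a smaller TRAF1 peak fell by 54.5%. A peak was called by the quasi-likelihood test of edgeR when its p, adjusted by Benjamini-Hochberg over all 20402 tested peaks, was under 0.05. By the same rule 39.4% of all peaks were called, 20.7% higher and 18.7% lower. With peaks cut into 5 equal bins by abundance, 34.2% were lower in the most abundant bin, which held 7 member peaks, and 22.7% in the next, which held 3. Scaled by total count instead, 23.4% of all peaks were higher and 13.7% lower, and 7 member peaks were lower. The median log2 fold change was -0.13 over the 16 member peaks and -0.0063 over all peaks. In 11 of the 16 both 500 nM libraries lay below both DMSO libraries, against 34.3% of all peaks. The remaining member peak, of NFKBIE, held 1 to 8 reads per library and was below the filter on low counts.

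**Figure D1:**
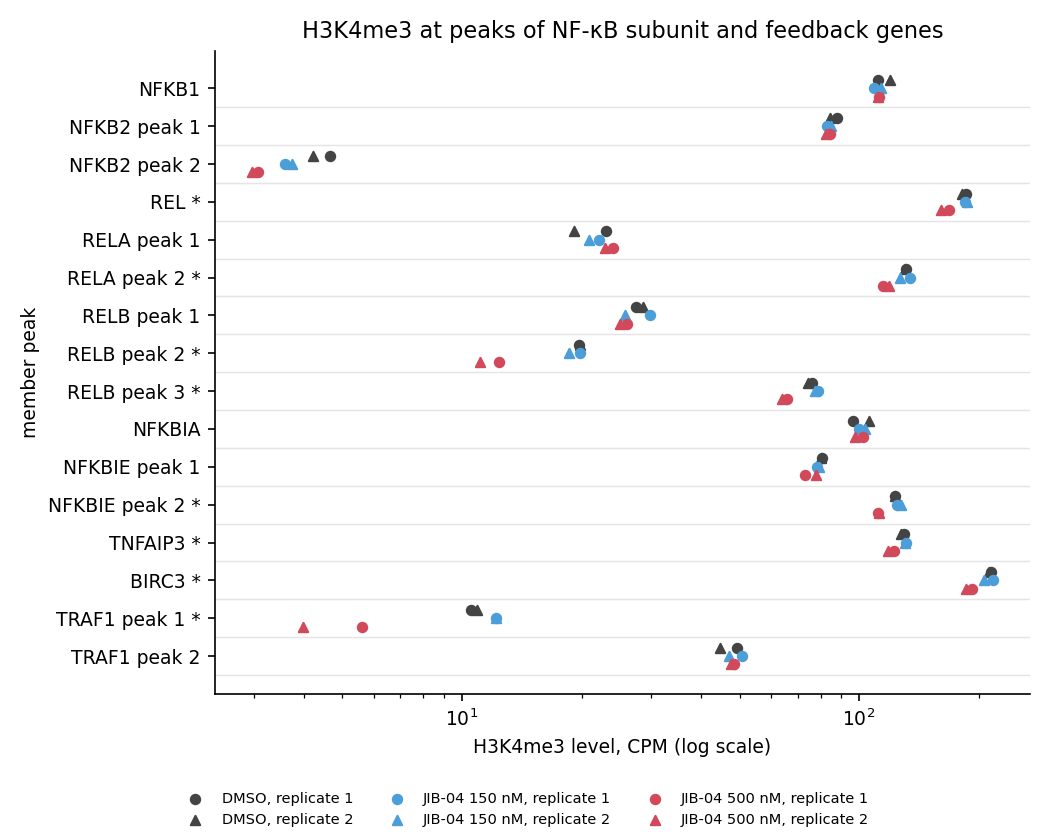
H3K4me3 level in CPM (log axis) at the 16 tested member peaks, with 1 point per library, coloured by dose (dark grey DMSO, blue 150 nM, red 500 nM) and shaped by replicate; peaks are numbered by position within a gene and asterisks mark the 8 called lower at 500 nM. The red points lie left of the dark grey ones at the marked peaks, most widely at TRAF1 peak 1 and RELB peak 2.

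REL encodes c-Rel, the NF-κB subunit most typical of germinal centre B cells. Its single H3K4me3 peak spans 6097 bp over the gene start (chromosome 2, 60880389 to 60886485, GRCh38) and read 186 and 181 CPM in DMSO, 185 and 188 at 150 nM, then 168 and 161 at 500 nM. Both 500 nM libraries lay below the other 4, which overlapped. From DMSO to 500 nM the level fell by 10.5% (log2 fold change -0.16, SE 0.034, adjusted p = 1.26e-04). RELA, which encodes p65, the main activating subunit, also fell at its start (chromosome 11, 65661639 to 65664185). That peak read 131 and 131 CPM in DMSO, 135 and 127 at 150 nM, then 115 and 119 at 500 nM (-0.16, SE 0.039, adjusted p = 6.41e-04). Here too the 500 nM libraries were lowest without overlap. A second, weaker RELA peak within 5 kb of the gene (65652219 to 65653523), at 23.0 and 19.2 CPM in DMSO and 24.0 and 22.9 at 500 nM, did not pass the test (0.14, adjusted p = 0.230).

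RELB, the partner of p52 in the noncanonical branch, had 3 peaks, of which 2 were called lower at 500 nM. The peak over the lower-coordinate end of the gene (chromosome 19, 45000788 to 45002023) read 27.4 and 28.5 CPM in DMSO and 26.0 and 25.0 at 500 nM and was not called (-0.13, adjusted p = 0.231). The next peak, further into the gene (45002250 to 45003294), read 19.7 and 19.8 CPM in DMSO, 19.8 and 18.6 at 150 nM, then 12.4 and 11.1 at 500 nM. Both 500 nM libraries stood far below the other 4, and the log2 fold change was -0.74 (SE 0.11, adjusted p = 2.04e-07). The last peak lies beyond the other end of the gene (45038508 to 45040910). It overlaps CLASRP, a neighbouring splicing-related gene, and no part of RELB, and was counted here only by the 5 kb rule. This peak read 76.1 and 74.6 CPM in DMSO, 78.7 and 77.3 at 150 nM, then 65.7 and 64.1 at 500 nM (-0.21, SE 0.049, adjusted p = 3.44e-04).

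The precursor subunits were not called. NFKB1, which encodes p105 and its product p50, read 112 and 120 CPM in DMSO, 109 and 113 at 150 nM, then 112 and 111 at 500 nM at its start peak (-0.044, SE 0.041, adjusted p = 0.416). NFKB2, which encodes p100 and p52, read 88.2 and 84.3 CPM in DMSO, 83.0 and 84.8 at 150 nM, then 84.7 and 82.4 at 500 nM (-0.047, SE 0.045, adjusted p = 0.449). The doses overlapped in both genes, and both signs turned under loess offsets (0.016 and 0.0035). Whether their response differs from that of REL was not tested. A small peak within NFKB2, 5100 to 5737 bp from the start, read 4.65 and 4.22 CPM in DMSO, 3.58 and 3.72 at 150 nM, then 3.06 and 2.96 at 500 nM. Its groups did not overlap, but with 29 to 57 reads per library it missed the threshold (-0.56, SE 0.24, adjusted p = 0.0531). It was called lower with the replicate block (adjusted p = 0.0468), under loess offsets (-0.83, 0.00393) and with no filter on low counts (0.0489).

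Among the NF-κB targets, BIRC3 fell at its start and TRAF1 at a distal peak. BIRC3 encodes cIAP2, a ubiquitin ligase that restrains NIK and relays TNF-receptor signals. Its peak of 6198 bp (chromosome 11, 102316113 to 102322310) read 215 and 212 CPM in DMSO, 217 and 207 at 150 nM, then 192 and 186 at 500 nM. The 500 nM libraries were again lowest without overlap (-0.17, SE 0.033, adjusted p = 1.34e-05). TRAF1, an adaptor that binds cIAP proteins and is strongly induced by NF-κB, had 2 peaks. The peak at the start (chromosome 9, 120927826 to 120929712) read 49.2 and 44.7 CPM in DMSO, 50.6 and 47.1 at 150 nM, then 48.3 and 47.5 at 500 nM, with overlapping groups (0.023, SE 0.061, adjusted p = 0.803, and -0.042 without DMSO replicate 2).

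The other TRAF1 peak lies 23651 to 24943 bp downstream of the start, in the far part of the gene (120904228 to 120905520). It read 10.5 and 10.9 CPM in DMSO, 12.2 and 12.2 at 150 nM, then 5.61 and 3.98 at 500 nM. These values rest on 129, 111, 136, 131, 66 and 39 reads. Both 500 nM libraries lay well below the other 4, and the log2 fold change of -1.14 (SE 0.17, adjusted p = 1.65e-07) was the most negative of the 16 member peaks. Against 150 nM it was -1.32 (SE 0.17, adjusted p = 1.90e-09).

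Of the inhibitors, NFKBIE and TNFAIP3 fell at 500 nM and NFKBIA was not called. NFKBIE encodes IκBε, an IκB prominent in B cells. Its main peak (chromosome 6, 44262788 to 44265964) read 123 and 123 CPM in DMSO, 124 and 128 at 150 nM, then 112 and 112 at 500 nM (-0.14, SE 0.039, adjusted p = 0.00318), with the 500 nM libraries lowest. This call ended under loess offsets (-0.079, adjusted p = 0.120) and in DESeq2 (-0.14, adjusted p = 0.143). A neighbouring peak, outside NFKBIE but within 5 kb of it, overlaps SLC35B2, a gene for a sulfate-donor transporter. It read 80.6 and 80.1 CPM in DMSO and 72.9 and 77.8 at 500 nM and was not called (-0.096, adjusted p = 0.108). TNFAIP3 encodes A20, a ubiquitin-editing brake on IκB kinase that is often inactivated in lymphoma. It read 130 and 127 CPM in DMSO, 131 and 131 at 150 nM, then 123 and 118 at 500 nM, again without overlap (-0.092, SE 0.038, adjusted p = 0.0496). This call ended under 11 of 14 alternatives, among them without DMSO replicate 1 (adjusted p = 0.210) or replicate 2 (0.0606), without 150 nM replicate 1 (0.0625) or replicate 2 (0.0524), and without 500 nM replicate 2 (0.232). NFKBIA, which encodes IκBα, the fast feedback inhibitor, read 96.8 and 106 CPM in DMSO, 99.8 and 104 at 150 nM, then 102 and 97.7 at 500 nM. The groups overlapped (-0.011, SE 0.044, adjusted p = 0.862), and the sign turned with the scaling, to 0.023 by total count and 0.045 by loess.

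At 150 nM H3K4me3 gave no call. Against DMSO, 0 of 16 member peaks were called by edgeR's test and 0 had an unadjusted p under 0.05, beside 0% and 4.66% of all peaks. DESeq2 also called 0. The log2 fold changes ran from -0.29 to 0.19 with a median of 0.0051. Between the doses, the 500 nM libraries were lower than those at 150 nM at 8 of 16 peaks, all 8 of which were also lower than DMSO, and 39.2% of all peaks were called, 18.6% lower. These comparisons share the 500 nM libraries, so the shared count is not independent. RELA was not called between the doses without 150 nM replicate 1 (-0.12, adjusted p = 0.0778). TNFAIP3 was not called there without 150 nM replicate 1 (adjusted p = 0.0762), without 150 nM replicate 2 (0.0534) or without 500 nM replicate 2 (0.0919). The 150 nM H3K4me3 libraries differed by less than counting noise (chi-square per degree of freedom 0.923), as did DMSO replicate 1 and 150 nM replicate 1 of different groups (0.952). Since libraries of different groups came as close, the 150 nM pair was kept as 2 samples. The DESeq2 Wald test called 4 of the 8 peaks lower against DMSO, those of REL and BIRC3, RELB peak 2 and the distal TRAF1 peak, and 7.25% of all peaks lower.

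Reads were also summed over all peaks of each gene. The H3K4me3 sum was lower at 500 nM than in DMSO for 6 of 10 members (REL, RELA, RELB, NFKBIE, TNFAIP3 and BIRC3) and higher for 0, where 42.2% of 22113 gene sums were called and 22.1% were lower. RELB fell most among them, from 123 and 123 CPM in DMSO to 104 and 100 at 500 nM (-0.27, SE 0.039, adjusted p = 3.55e-07). Of its DMSO mean of 123 CPM, 75.3 CPM was the peak over CLASRP, outside RELB. TRAF1, whose sum is mostly its start peak, stood at 59.8 and 55.6 CPM in DMSO and 53.9 and 51.5 at 500 nM and was not called (-0.13, adjusted p = 0.0565), but was called without DMSO replicate 2 (-0.18, adjusted p = 0.0274). Against 150 nM, 7 of 10 sums were lower at 500 nM, these 6 and TRAF1 (-0.21, adjusted p = 0.00232), where 41.6% of all sums were called and 20.9% were lower. At 150 nM 0 of 10 sums were called, against 0% of all, and 0 had an unadjusted p under 0.05. The sum of RELA was not called by total count (-0.082, adjusted p = 0.0657), without DMSO replicate 1 (0.0941) or without 500 nM replicate 1 (0.0770), and that of NFKBIE without 500 nM replicate 1 (0.0515). For TNFAIP3 the call ended by median of ratios (adjusted p = 0.0522), by total count (0.246), with only the 4 libraries compared (0.0542), and without DMSO replicate 1 (0.197), DMSO replicate 2 (0.0565), 150 nM replicate 1 (0.0504) or 500 nM replicate 2 (0.222).

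**Figure D2:**
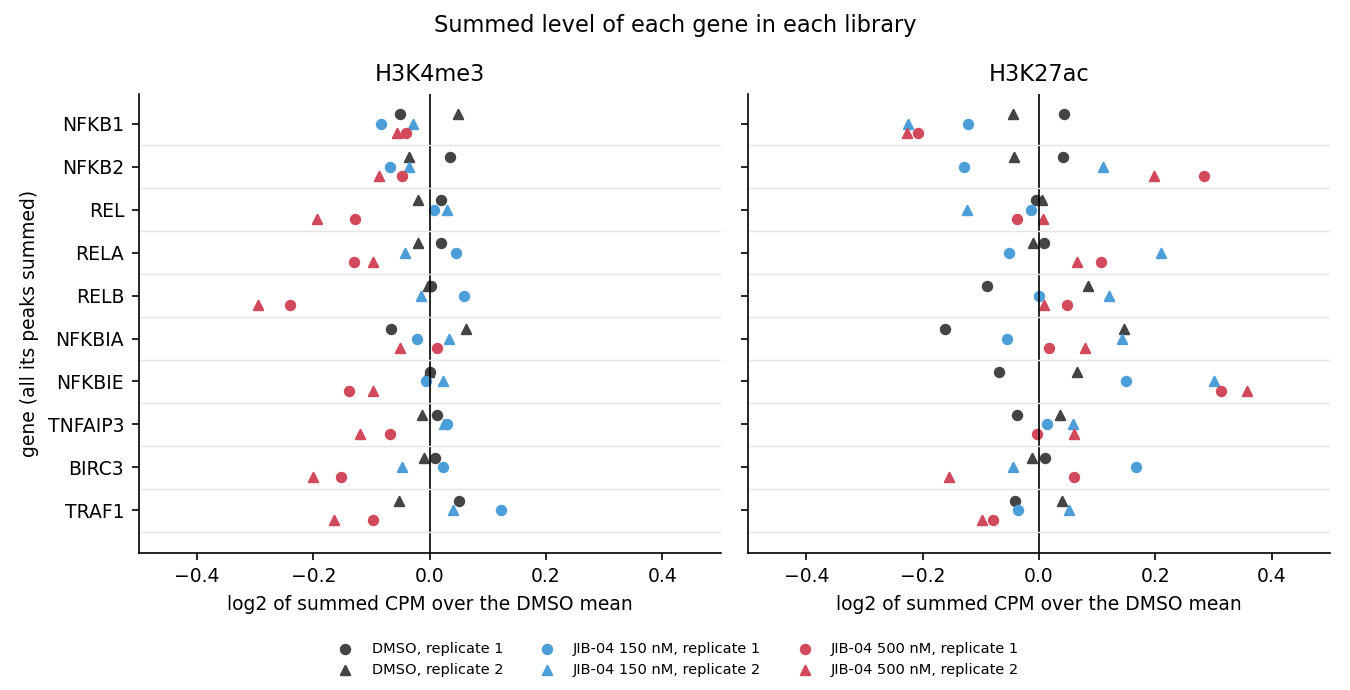
Summed level of each gene in each library as the log2 ratio to the DMSO mean, H3K4me3 on the left and H3K27ac on the right, with 1 point per library. On the left the 500 nM points of RELB, BIRC3 and REL lie below 0, and on the right those of NFKBIE lie above 0.3.

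For H3K27ac no single member peak passed the test. Of the 61 member peaks tested (12 more were below the filter on low counts), 0 were called by edgeR in any of the 3 comparisons, and 0 by DESeq2. At an unadjusted p under 0.05 there were 7 for 500 nM against DMSO, 4 for 500 nM against 150 nM and 3 for 150 nM against DMSO. Of all 54037 tested H3K27ac peaks, 0.923%, 1.27% and 0.00185% were called in these comparisons, and 11.5%, 10.2% and 3.94% had an unadjusted p under 0.05. The standard errors of member peaks ran from 0.082 to 0.69, against 0.033 to 0.24 for the H3K4me3 peaks. The 150 nM H3K27ac libraries differed at a chi-square per degree of freedom of 2.39, against 1.32 within DMSO and 1.25 within 500 nM. DMSO replicate 1 and 150 nM replicate 1, of different groups, came closer (1.28). H3K27ac comparisons with the 150 nM group carry this limit.

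Over the gene starts no peak was called. At REL the start peak (60879786 to 60883815) read 76.6 and 84.6 CPM in DMSO, 74.8 and 79.4 at 150 nM, then 77.0 and 79.4 at 500 nM (-0.045, SE 0.11). BIRC3 had the widest start peak, 8725 bp, at 147 and 147 CPM in DMSO, 166 and 143 at 150 nM, then 156 and 134 at 500 nM (-0.014, SE 0.096). In both genes the groups overlapped. The start peaks of RELA (0.030, SE 0.13), NFKB1 (-0.052, SE 0.12), NFKBIA (0.045, SE 0.11), TNFAIP3 (-0.15, SE 0.12) and TRAF1 (-0.15, SE 0.10) did not pass the test either. Nor did the most abundant RELB peak, which lies within the gene (45013249 to 45018492, 0.12, SE 0.11). Without 150 nM replicate 1 the TRAF1 start peak was called lower at 500 nM than at 150 nM (-0.31, adjusted p = 0.0162). NFKB2 alone among the subunits had a start peak with both 500 nM libraries (55.2 and 50.5 CPM) above both DMSO (45.5 and 41.7) and both 150 nM libraries (40.6 and 47.9), at a log2 fold change of 0.28 (SE 0.13, adjusted p = 0.382).

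The distal TRAF1 site lay within a wide H3K27ac domain. A peak of 7515 bp (120899503 to 120907017), which also overlaps PHF19, read 252 and 267 CPM in DMSO, 248 and 279 at 150 nM, then 251 and 257 at 500 nM (-0.031, SE 0.082, adjusted p = 0.929). It contains the whole of the distal H3K4me3 peak that fell by 54.5% at 500 nM. At this site the H3K27ac libraries of the 3 doses overlapped, and both H3K4me3 libraries at 500 nM lay below the others. The H3K27ac peak over most of RELB peak 2 (81.7% covered by H3K27ac peaks) had a log2 fold change of -0.034 (SE 0.21). Whether the marks differ in their response at these sites was not tested.

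**Figure D3:**
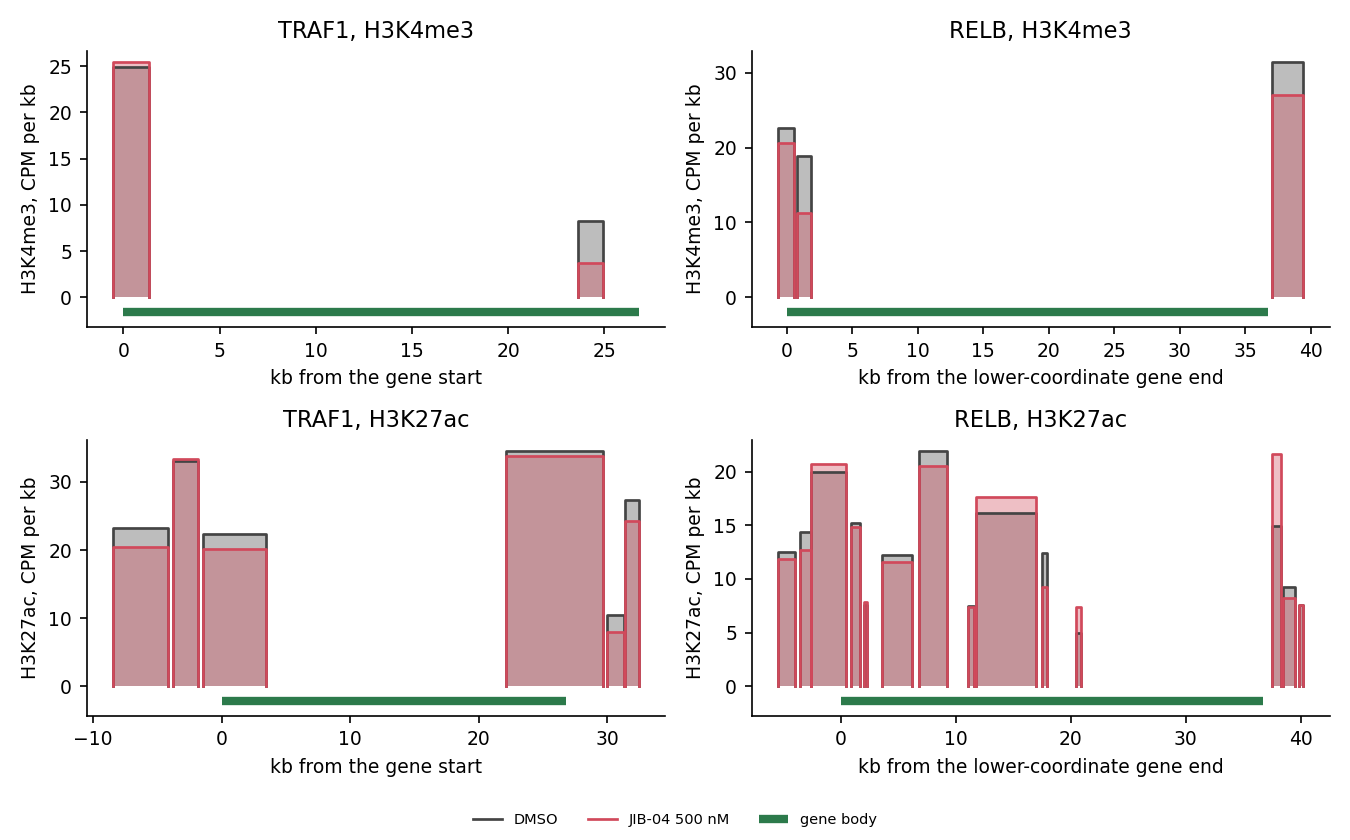
Peaks of TRAF1 (left) and RELB (right) to scale, as boxes whose height is the mean of 2 libraries in CPM per kb, grey for DMSO and red for 500 nM, with H3K4me3 above and H3K27ac below and the gene body in green. The red box is lower than the grey at the distal TRAF1 H3K4me3 peak and at RELB peak 2, and of nearly equal height at the wide TRAF1 H3K27ac peak.

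By gene sums, NFKBIE was the 1 member whose marks were called in opposite directions, each in its own test. The H3K27ac sum over its 5 peaks read 159 and 175 CPM in DMSO, 185 and 206 at 150 nM, then 207 and 214 at 500 nM. All 4 treated libraries lay above both DMSO libraries. At 500 nM the log2 fold change was 0.33 (SE 0.086, adjusted p = 0.0398), where 1.78% of all gene sums were called and 1.38% were higher, and at 150 nM it was 0.23 (adjusted p = 0.99976). The 500 nM call ended without DMSO replicate 1 (0.26, adjusted p = 0.547), DMSO replicate 2 (0.41, 0.198), 500 nM replicate 1 (0.36, 0.218) or 500 nM replicate 2 (0.31, 0.469), and without 150 nM replicate 1 the sum was also called at 150 nM (0.31, adjusted p = 0.0137). Among the 4 libraries with many contig reads, DMSO replicate 1 stood at 159, 150 nM replicate 1 at 185 and the 500 nM libraries at 207 and 214, the last pair at a log2 ratio of 0.41 to DMSO replicate 1. Its main peak (44261439 to 44265623) read 74.9 and 81.6 CPM in DMSO, 88.8 and 93.7 at 150 nM, then 99.8 and 102 at 500 nM, in order of dose but short of the threshold (0.36, SE 0.10, adjusted p = 0.0824). The peak shared with SLC35B2 (44255251 to 44259562) read 66.7 and 69.4, 74.4 and 85.6, and 81.6 and 87.6 CPM (0.31, SE 0.11, adjusted p = 0.201). Both peaks were called without 150 nM replicate 1 (0.37 and 0.32) and without 150 nM replicate 2 (0.36 and 0.31), libraries outside this comparison. Neither peak was called when a DMSO or a 500 nM library was left out. The H3K4me3 sum of NFKBIE was lower at 500 nM (-0.12, SE 0.032, adjusted p = 0.00213). Of its DMSO mean of 204 CPM, 80.3 CPM was the peak over SLC35B2, outside NFKBIE. Of the H3K27ac DMSO mean of 167 CPM, 68.0 CPM was the peak shared with SLC35B2 and 2.62 CPM a peak outside NFKBIE over SLC35B2. Whether the 2 marks differ at NFKBIE was not tested.

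**Figure D4:**
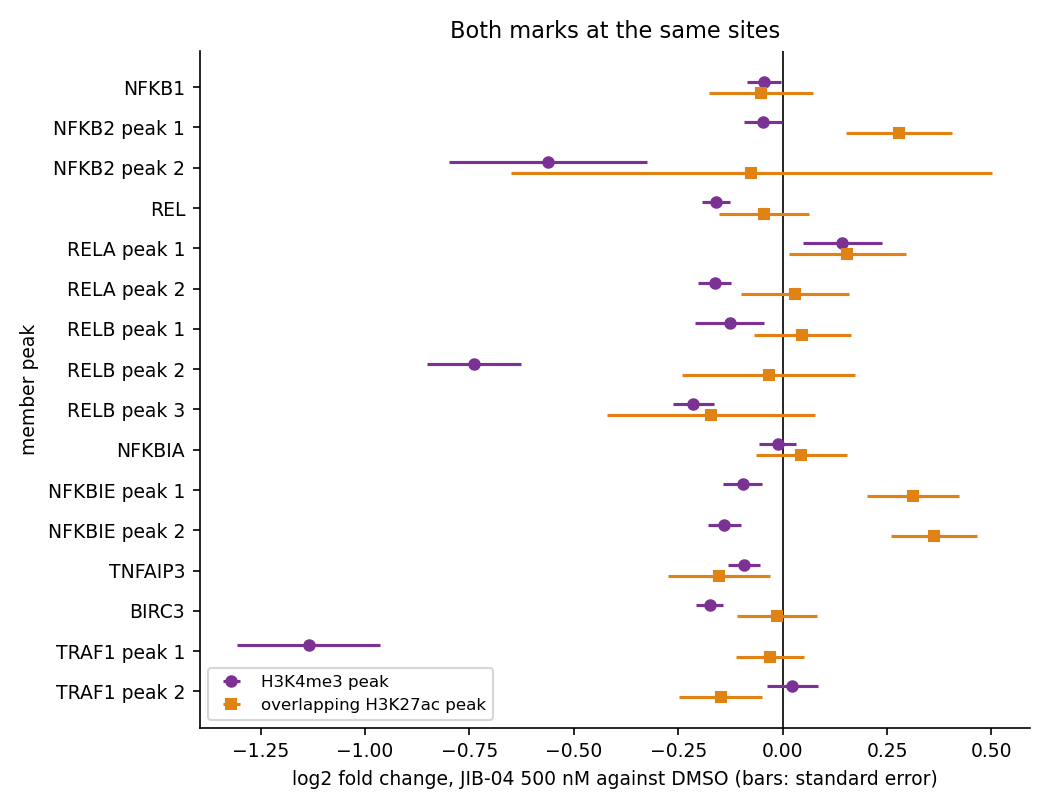
Log2 fold change at 500 nM against DMSO for each tested H3K4me3 member peak (purple circles) and the H3K27ac peak that overlaps it most (orange squares), with standard errors as bars. At the distal TRAF1 peak and RELB peak 2 the purple point lies far left and the orange point near 0, and at both NFKBIE peaks the orange point lies right of 0.

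Further H3K27ac peaks, of NFKB1 and REL, passed the test only under an alternative. They were picked for that, and other member peaks had an unadjusted p under 0.05 by edgeR in either direction. At 500 nM against DMSO such peaks were 7 of 61, beside 11.5% of all H3K27ac peaks. Within NFKB1, a peak 26379 to 27428 bp from the start (102527738 to 102528787) read 9.43 and 7.22 CPM in DMSO, 8.29 and 5.28 at 150 nM, then 4.71 and 4.69 at 500 nM (-0.81, SE 0.29, adjusted p = 0.214). Both 500 nM libraries were lowest. With a term for the contig split it reached -1.06 (adjusted p = 0.0341). Next to the REL start peak, a second peak (60884024 to 60886473) read 23.0 and 18.1 CPM in DMSO, 23.6 and 8.29 at 150 nM, then 22 and 23.5 at 500 nM. Here 1 library, 150 nM replicate 2, with 44 reads, stood alone. Without 150 nM replicate 1 the peak was called lower at 150 nM than in DMSO (-1.28, adjusted p = 6.18e-05), a call that then rests on that library.

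The wider pathway was read from 4 lists of genes. Their peaks were taken by the same 5 kb rule, so a peak can lie over a neighbouring gene. A peak within reach of several genes of a list was not credited to each of them, so counts of genes are approximate. Of the kinases and adaptors that carry the signal (21 genes, 39 H3K4me3 peaks tested), 18 peaks in 15 genes were lower at 500 nM and 2 were higher, with a median log2 fold change of -0.091. Of all tested H3K4me3 peaks 18.7% were lower and 20.7% higher in this comparison, shares that stand beside the counts of all 4 lists. The share lower rose with abundance, to 34.2% in the most abundant bin and 22.7% in the next. The lists were not matched for abundance, so their counts cannot be judged by 18.7% alone. TRAF3, a brake on NIK, had a small peak (chromosome 14, 102776599 to 102777199) that was named by its upstream promoter window. Whether that peak reaches the gene start itself was not tested. The small peak read 3.51 and 4.62 CPM in DMSO and 2.04 and 2.35 at 500 nM (-0.88, SE 0.28, adjusted p = 0.00912). Against 150 nM that peak was not called (adjusted p = 0.222). The larger TRAF3 peak beside it (chromosome 14, 102777411 to 102779334), named after its values were seen, went from 33.3 and 29.9 to 28.3 and 24.4 CPM (-0.26, adjusted p = 0.00877). BTK, the kinase below the B-cell receptor, went from 31.9 and 30.9 to 25.4 and 26.8 CPM (-0.27, SE 0.078, adjusted p = 0.00370). At these peaks the 500 nM libraries lay below those of DMSO. The 2 higher peaks, named after their values were seen, were of MAP3K14, which encodes NIK, and PRKCB, which encodes protein kinase C beta. The MAP3K14 peak was 23.0% higher, from a DMSO mean of 26.5 CPM, and the PRKCB peak 58.6% higher, from only 3.39 CPM. Each gene also had a stronger peak called lower, at 109 CPM in DMSO for MAP3K14 and 83.9 CPM for PRKCB.

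Among receptors, 4 of 9 tested H3K4me3 peaks were lower and 3 higher, each of a different gene, beside 18.7% and 20.7% of all peaks. Lower were TLR9, the sensor of unmethylated DNA (29.4 and 27.7 CPM in DMSO, 21.9 and 21.0 at 500 nM, -0.41, SE 0.086, adjusted p = 7.97e-05), and TNFRSF13B, which encodes TACI (103 and 98.8 CPM against 78.5 and 78.9, -0.36, SE 0.045, adjusted p = 1.38e-09). The remaining 2, named after their values were seen, were CD40, the receptor for T-cell help (59.1 and 55.1 against 40.5 and 37.9 CPM, -0.54), and TNFRSF13C, which encodes the BAFF receptor (60.2 and 56.8 against 46.3 and 47.5 CPM, -0.32). Higher was TNFRSF1B, which encodes TNF receptor 2, at 3.51 and 3.05 CPM in DMSO and 7.65 and 9.80 at 500 nM (1.39, SE 0.20, adjusted p = 8.78e-08). The other 2, again named after their values were seen, were TNFRSF17, which encodes the plasma-cell receptor BCMA (58.3 and 55.7 against 87.3 and 83.3 CPM, 0.58), and TNFRSF1A, which encodes TNF receptor 1, at a barely marked site (0.327 and 0.196 against 0.935 and 1.53 CPM).

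Other inhibitors and atypical IκB genes had 6 of 18 H3K4me3 peaks lower, in 5 genes, and 0 higher, with a median of -0.070, beside the same 18.7% lower and 20.7% higher of all peaks. TNIP1 encodes ABIN-1, a partner of A20. Its start peak read 157 and 158 CPM in DMSO, 159 and 158 at 150 nM, then 121 and 118 at 500 nM (-0.40, SE 0.037, adjusted p = 1.20e-13). A second TNIP1 peak (chromosome 5, 151085399 to 151087443), named after its values were seen, fell by 50.9% (-1.03). NFKBID, an atypical nuclear IκB, went from 34.4 and 33.0 to 28.9 and 27.7 CPM (-0.25, SE 0.075, adjusted p = 0.00562). The other genes, named after their values were seen, were BCL3 (-0.17), NFKBIZ (-0.15) and TNIP2 (-0.75).

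Known targets outside the feedback circuit had 12 of 41 peaks higher, credited to 9 genes, and 9 lower, credited to 6 genes, with a median of 0.035. Of all peaks 20.7% were higher and 18.7% lower, and this list too was not matched for abundance. PLEK rose from 65.2 and 63.9 CPM in DMSO to 105 and 108 at 500 nM (0.71, SE 0.046, adjusted p = 4.90e-20). STAT5A, a transcription factor of cytokine signalling, rose at a weakly marked start from 1.80 and 1.96 to 6.46 and 7.56 CPM (1.89, SE 0.24, adjusted p = 3.33e-09). LTA, which encodes lymphotoxin alpha, fell from 59.3 and 58.8 to 47.6 and 48.6 CPM (-0.30, SE 0.056, adjusted p = 1.74e-05), and SOD2, a mitochondrial superoxide dismutase, from 124 and 127 to 112 and 113 CPM (-0.16, SE 0.039, adjusted p = 7.81e-04). Whether the lists differ from the members was not tested. At 150 nM, 0 H3K4me3 peaks of the 4 lists were called by edgeR, with 1, 0, 0 and 3 at an unadjusted p under 0.05 in the order above.

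In H3K27ac the 4 lists had 1 of 102, 0 of 24, 1 of 40 and 1 of 97 peaks called at 500 nM against DMSO by edgeR, each higher, beside 0.923% of all H3K27ac peaks called. The peak at the start of CCL3, a chemokine of activated B cells, rose from 2.30 and 4.01 CPM in DMSO to 9.04 and 8.60 at 500 nM, with 7.44 and 4.34 at 150 nM (1.45, SE 0.32, adjusted p = 0.00891). The other 2, named after their values were seen, were a peak of RBCK1, a subunit of the linear ubiquitin ligase (50.2% higher), and a peak of TNIP1 (37.8% higher). At an unadjusted p under 0.05 the lists held 16, 0, 10 and 8 peaks, beside 11.5% of all.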

How the data were processed

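Read counts per consensus peak were deposited for each mark, 1 column per library, not normalized. The authors used featureCounts 2.0.1, unstranded, with multiple overlaps allowed and a minimum overlap fraction of 0.2, per the file headers. The headers also carry the paired-read option although the labels describe 50 bp single reads, so whether reads or fragments were counted is not settled. Trim Galore 0.6.7, BWA 0.7.17-r1188, Picard 2.27.4, MACS2 2.2.7.1, deepTools 3.5.1, edgeR 3.42.4 and the build GRCh38 are named in the submitters' processing notes. How the consensus was made is not given in the sources used here. Overlapping peaks share reads under this counting, and 1 was added to deposited starts.

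Here the counts of all 6 libraries of a mark were fitted with edgeR 4.0.16 in R 4.3.3 with dose as factor (filterByExpr, TMM, glmQLFit, glmQLFTest, Benjamini-Hochberg over all tested peaks, adjusted p under 0.05). Standard errors came from the F statistic. Gene sums used the counts of all peaks within 5 kb with the scaling of the peak table. The steps were tested on simulated counts. Alternatives were other scalings, filters, DESeq2 1.42.0, the replicate block, a term for the H3K27ac library split, 4 libraries, peaks inside genes only, and leaving out each library. Gene starts came from the RefSeq promoter table of GRCh38.p14, which matched 8 of the 10 members by symbol (not RELB and NFKBIE).

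The members, lists, tests and alternatives were chosen with earlier results of these data known. All members were named, with the peak over the gene start (or else the most abundant) and every called peak. From each list at most 2 rises and 2 falls at gene starts were named. Figures were drawn with matplotlib 3.10.9. Intervals and standard errors cover reads without molecular identifiers, which are not independent molecules. The libraries of input, H3K9me2 and H3K9me3 were not analysed here.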

Additional observations from a re-analysis of the deposited data

How the results depend on the processing

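For the members, 121 counts of calls under an alternative stayed within 1.5 times the main count and 14 did not. For H3K4me3 the DESeq2 Wald test gave 4 peaks instead of 8 for 500 nM against DMSO and 5 instead of 8 against 150 nM. For H3K27ac at 500 nM against DMSO, where 0 peaks were called, the 4 libraries alone gave 2, the replicate block 1 and the split term 3. Leaving out 1 library gave 0 to 2 there, 0 to 2 against 150 nM, and 0 to 1 at 150 nM against DMSO; for H3K27ac gene sums it gave 0 to 1 at 500 nM and 0 to 1 at 150 nM. The peaks gained at 500 nM against DMSO were those of NFKBIE and, with the split term, 1 of NFKB1. Uncalled values that changed sign at 500 nM against DMSO were, for H3K4me3, NFKB1 (0.016) and NFKB2 (0.0035) under loess offsets and NFKBIA by total count (0.023), by loess (0.045) and at a mean count of at least 50 (0.011). Leaving out 1 library gave -0.083 to 0.046 at NFKBIA and -0.042 to 0.097 at the TRAF1 start. For H3K27ac REL reached 0.015 with the split term, and leaving out 1 library gave -0.12 to 0.033 at REL, -0.040 to 0.10 at RELA, -0.033 to 0.31 at RELB, -0.10 to 0.21 at NFKBIA and -0.12 to 0.092 at BIRC3. The cause was not tested. Loess offsets gave 7 H3K4me3 peaks against DMSO, 6 of them among the 8, and the calls of NFKBIE and TNFAIP3 ended. Scaling by the total count in peaks moved the share of all H3K4me3 peaks called lower at 500 nM against DMSO from 18.7% to 13.7% and called higher from 20.7% to 23.4%, and left 7 of the 8 member calls. When a group is left with 1 library, that library is assumed to vary like the others.

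The main fit did not pair libraries by replicate number. The correlation of deviations of same-numbered libraries ran from 0.0026 to 0.13. It was highest between DMSO and 150 nM in H3K27ac, the groups whose replicate 2 libraries had few contig reads. The replicate block gave 9 H3K4me3 peaks against DMSO (the 8 and the intragenic NFKB2 peak), 8 against 150 nM and 0 at 150 nM, 6 H3K4me3 gene sums and 1 H3K27ac gene sum at 500 nM against DMSO.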
